A study of Mus musculus with 24 samples.

Results

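The Fos and Jun genes encode the subunits of AP-1, a transcription factor that works as a pair of proteins. Fos, Fosb and Fosl2 encode Fos subunits, which must pair with a Jun subunit to bind DNA, and Jun, Junb and Jund encode Jun subunits, which can pair with either family. In the hippocampus Fos, Fosb and Junb are immediate early genes: synaptic activity switches them on within minutes, without new protein, through MAPK signalling to the transcription factors SRF and CREB, and their mRNAs are short-lived. Jund is transcribed more evenly. MSK1 (mitogen- and stress-activated kinase 1, encoded by Rps6ka5) lies below the MAPKs and phosphorylates CREB and histone H3, which is why these genes are of interest in mice that lack its kinase activity. The 6 genes were taken by their symbols, Fos, Fosb, Fosl2, Jun, Junb and Jund, from the 49568 gene symbols counted in each library, and all 6 were found in all 24 libraries and were among the 20187 genes tested.

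Each library held the hippocampal RNA of 1 mouse, aged 21 to 23 months, and each group had 6 mice. WTSH were wild type (WT) mice in standard housing and WTEE were WT mice moved to an enriched environment at 18 months. KDSH and KDEE were MSK1 KD (kinase dead) mice under the same conditions. All were male and on a C57Bl/6J background, after at least 4 backcrosses from C57Bl/6n, the strain in which the mutation was made. The paper states that WT and MSK1 KD mice were bred as separate lines from common founders, with later backcrossing to limit divergence. Genotype and breeding line therefore cannot be told apart here. The MSK1 KD allele is a point mutation in the endogenous gene, present in every cell of the mouse, that inactivates the kinase domain through which MSK1 acts on its substrates. Enrichment consisted of roomier cages with objects to explore and a means of exercise, and with more males to a cage than in standard housing. The labels give no cage, so mice that shared a cage cannot be identified. The paper describes these mice as naive in one place and as sampled some weeks after behavioural procedures in another, so their earlier handling is not settled here. WTSH samples 4 and 7 and KDSH sample 6 were left out, as libraries with ribosomal RNA contamination or low correlation with their group, which leaves 4 WTSH, 6 WTEE, 5 KDSH and 6 KDEE libraries.

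The 21 libraries held 27410239 to 71907130 read pairs on genes, and the share of these on a list of structural RNAs (ribosomal and other abundant non-coding RNAs) was 0.0354% to 2.57%, against 5.59% to 23.2% in the 3 libraries left out. Markers of excitatory neurons were detected in every group, with a summed level of 6833 to 10206 CPM (counts scaled to a library size common to all libraries). The lowest of these was WTEE mouse 10, which also had the highest share of read pairs that could not be assigned to a single gene (6.57%) and stands apart from the other WTEE mice in the results on Fosl2 and Jund. Counts per gene cannot show a point mutation, so they do not check the genotype. Rps6ka5 itself was at 23.3 ± 2.10 CPM (SD, n = 4) in WTSH, 21.7 ± 3.95 CPM (SD, n = 6) in WTEE, 24.1 ± 0.456 CPM (SD, n = 5) in KDSH and 23.7 ± 0.571 CPM (SD, n = 6) in KDEE.

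The promoters of the 3 genes whose 300 bases around the RefSeq start of transcription hold the core of a CREB site, TGACG, are shown first, because CREB is a substrate of MSK1. The bases run from 250 before the start to 50 after it, on the strand of the gene, and capitals mark TGACG, read on both strands, and the TATA box TATAAA. The build is GRCm38.p6.
Fos, chr12:85473640-85473939, plus strand: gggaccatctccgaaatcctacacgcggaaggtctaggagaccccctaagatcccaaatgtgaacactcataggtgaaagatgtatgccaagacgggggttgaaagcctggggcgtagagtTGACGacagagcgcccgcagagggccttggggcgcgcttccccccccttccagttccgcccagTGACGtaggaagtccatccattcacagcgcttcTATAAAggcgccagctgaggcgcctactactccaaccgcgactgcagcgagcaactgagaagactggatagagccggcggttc
Junb, chr8:84978699-84978998, minus strand: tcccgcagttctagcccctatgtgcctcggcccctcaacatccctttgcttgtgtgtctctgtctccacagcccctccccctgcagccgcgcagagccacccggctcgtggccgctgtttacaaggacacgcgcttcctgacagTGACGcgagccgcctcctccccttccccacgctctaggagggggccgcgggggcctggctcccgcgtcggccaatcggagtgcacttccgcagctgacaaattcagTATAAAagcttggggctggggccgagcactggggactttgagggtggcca
Fosb, chr7:19309996-19310295, minus strand: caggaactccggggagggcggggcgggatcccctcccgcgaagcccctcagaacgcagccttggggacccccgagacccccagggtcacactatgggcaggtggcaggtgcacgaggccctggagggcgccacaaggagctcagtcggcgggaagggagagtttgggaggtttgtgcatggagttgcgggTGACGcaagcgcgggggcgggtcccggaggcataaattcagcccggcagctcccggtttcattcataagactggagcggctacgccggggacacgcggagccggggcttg

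Fos held TGACG at 2 places, from -129 to -125 and from -66 to -62 relative to the start, and Junb and Fosb held it once each, beginning at -106 and -60. TGACG occurred in 20.8% of the 32851 mouse promoters of the same length. TATAAA, which 13.6% of them held, was found in Fos and in Junb. In Junb it lies just after the RefSeq start, which is 30 bases upstream of the start in the GENCODE annotation. No promoter of the 6 genes held the AP-1 site in the form TGANTCA (7.81% of all promoters) within these 300 bases. Other forms of the AP-1 site were not searched for, and the window of Jun holds tgacatca, which TGANTCA cannot match. None of the 6 held a CArG box, the site of SRF (1.63% of all promoters), within the same bases. The RefSeq starts of Fosl2 and Jund lie 671 and 1210 bases from the GENCODE starts, so their windows cover other sequence than the annotated start. A match describes the letters and does not show that a factor binds.

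The genes themselves lie on 5 chromosomes of GRCm38: Fos at chr12:85473890-85477273, Fosb at chr7:19302696-19310051, Fosl2 at chr5:32135801-32157842, Jun at chr4:95049034-95052222, Junb at chr8:84974484-84978718 and Jund at chr8:70698949-70700616. Jun and Jund have a single exon. The reads were counted without regard to strand, and read pairs that touch exons of 2 genes are not counted for either. The antisense gene Gm11175 covers 52.6% of the exon bases of Jund, so the level of Jund may be too low, whereas the antisense gene Junos covers 7.28% of Jun and Prdx2 covers 7.52% of Junb. Counts per gene do not separate the mRNA of full-length Fosb from that of its truncated form, ΔFosB, which is the form known to build up with repeated activity.

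Per kilobase of exon, Jun and Junb were the most abundant of the 6 genes. Over the 21 mice Jun was at 33.2 ± 4.07 CPM per kilobase (SD, n = 21) and Junb at 30.7 ± 6.92, so that these neighbours in the order overlapped within their spread between mice. Jund at 14.5 ± 3.41, which may be too low for the reason above, and Fos at 12.5 ± 4.18 also overlapped. Fosl2, which encodes Fra-2, followed at 6.33 ± 1.12 CPM per kilobase, and Fosb was lowest at 2.44 ± 0.573. Fosb and Fosl2 have the longest exons, so that on the scale of CPM alone, which does not allow for length, Fosl2 was at 61.3 ± 10.8 CPM and Fosb at 15.2 ± 3.57 CPM.

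Fos, the subunit most used to mark recently active neurons, had the largest SD of log2 CPM within groups of the 6 genes when all 4 groups were pooled, although in WTEE alone Jund and Fosl2 varied more. In the 4 WTSH mice it was at 11.9, 30.0, 43.5 and 48.1 CPM, and both the lowest and the highest of all 21 values were in this group. The 6 WTEE mice had a lowest value of 25.8, a median of 33.5 and a highest value of 46.6 CPM. The 5 KDSH mice were at 18.7, 20.7, 23.5, 34.7 and 34.8 CPM. The 6 KDEE mice ran from 14.1 through a median of 26.4 to 29.9 CPM. All 4 groups overlapped, although 4 of the 6 WTEE mice were above every KDEE mouse and 2 of the 6 KDEE mice were below every WTEE mouse. The group means stood in the order WTEE (34.3 ± 7.25 CPM, SD, n = 6), WTSH (33.4 ± 16.3, n = 4), KDSH (26.5 ± 7.72, n = 5) and KDEE (24 ± 6.62, n = 6), and no 2 neighbours in it differed beyond their spread.

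Junb, a Jun subunit that is induced by activity together with Fos, followed the same mice. Its values in WTSH were 38.5, 64.9, 83.1 and 93.4 CPM, and the lowest was again WTSH mouse 5, which was lowest for Fos. The WTEE mice had 65.9 as the lowest, 81.8 as the median and 94.0 CPM as the highest value. In KDSH Junb was at 53.6, 57.6, 68.6, 75.4 and 86.7 CPM, and in KDEE it ran from 44.6 through a median of 65.7 to 77.1 CPM. As with Fos, 4 of the 6 WTEE mice lay above every KDEE mouse, and 3 of the 6 KDEE mice lay below every WTEE mouse. The means were 80.7 ± 12.5 CPM (SD, n = 6) in WTEE, 70.0 ± 24.1 (n = 4) in WTSH, 68.4 ± 13.4 (n = 5) in KDSH and 63.1 ± 13 (n = 6) in KDEE.

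Fosb had a lower mean in the enriched than in the standard-housed mice of both genotypes, but in neither was the edgeR adjusted p under 0.05. The WTSH mice were at 12.7, 15.9, 19.4 and 20.7 CPM and the WTEE mice had a lowest value of 12, a median of 14.1 and a highest value of 19.5 CPM. The KDSH mice were at 11.6, 14.7, 17.4, 19 and 22.6 CPM, and the KDEE mice ran from 9.91 through a median of 12.8 to 15.7 CPM. In KDEE 2 of the 6 mice were below every KDSH mouse and 3 of the 5 KDSH mice were above every KDEE mouse. The group means were 17.2 ± 3.60 (SD, n = 4), 14.9 ± 3.02 (n = 6), 17.1 ± 4.19 (n = 5) and 12.7 ± 2.45 CPM (n = 6) in WTSH, WTEE, KDSH and KDEE.

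Fosl2 showed the same order by housing. It was at 59.5, 67.5, 71.4 and 74.4 CPM in WTSH, and the WTEE mice had a lowest value of 34.0, a median of 57.3 and a highest value of 74.7 CPM. The lowest of these was WTEE mouse 10, far below the next WTEE mouse at 50.2 CPM. The KDSH mice were at 57.1, 59.5, 70.8, 75.9 and 77.6 CPM, and the KDEE mice kept close together, from 50.9 through a median of 54.7 to 62.2 CPM. In KDEE 4 of the 6 mice lay below every KDSH mouse, and 3 of the 5 KDSH mice lay above every KDEE mouse. The means were 68.2 ± 6.47 CPM (SD, n = 4) in WTSH, 68.2 ± 9.39 (n = 5) in KDSH, 56.8 ± 14.2 (n = 6) in WTEE and 55.4 ± 4.17 (n = 6) in KDEE.

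Jun, which encodes c-Jun, the founding partner of Fos, ran from 84.0 to 131.7 CPM over the 21 mice, the smallest ratio of highest to lowest among the 6 genes (1.57). Its group means lay between 103.5 ± 9.85 CPM (SD, n = 6) in WTEE and 108.7 ± 16 CPM (SD, n = 4) in WTSH, with KDSH at 107.1 ± 19 (n = 5) and KDEE at 105.4 ± 11 (n = 6). Jund, which encodes a Jun subunit that is present in resting cells, ranged from 18.2 to 31.8 CPM in 20 of the mice and was at 45.0 CPM in WTEE mouse 10. Its means were 22.9 ± 2.90 CPM (SD, n = 4) in WTSH, 26.5 ± 9.33 (n = 6) in WTEE, 22.2 ± 2.73 (n = 5) in KDSH and 24.2 ± 4.40 (n = 6) in KDEE. The groups overlapped for both genes, and for all 6 genes in each of the 4 comparisons of 2 groups.

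**Figure D1:**
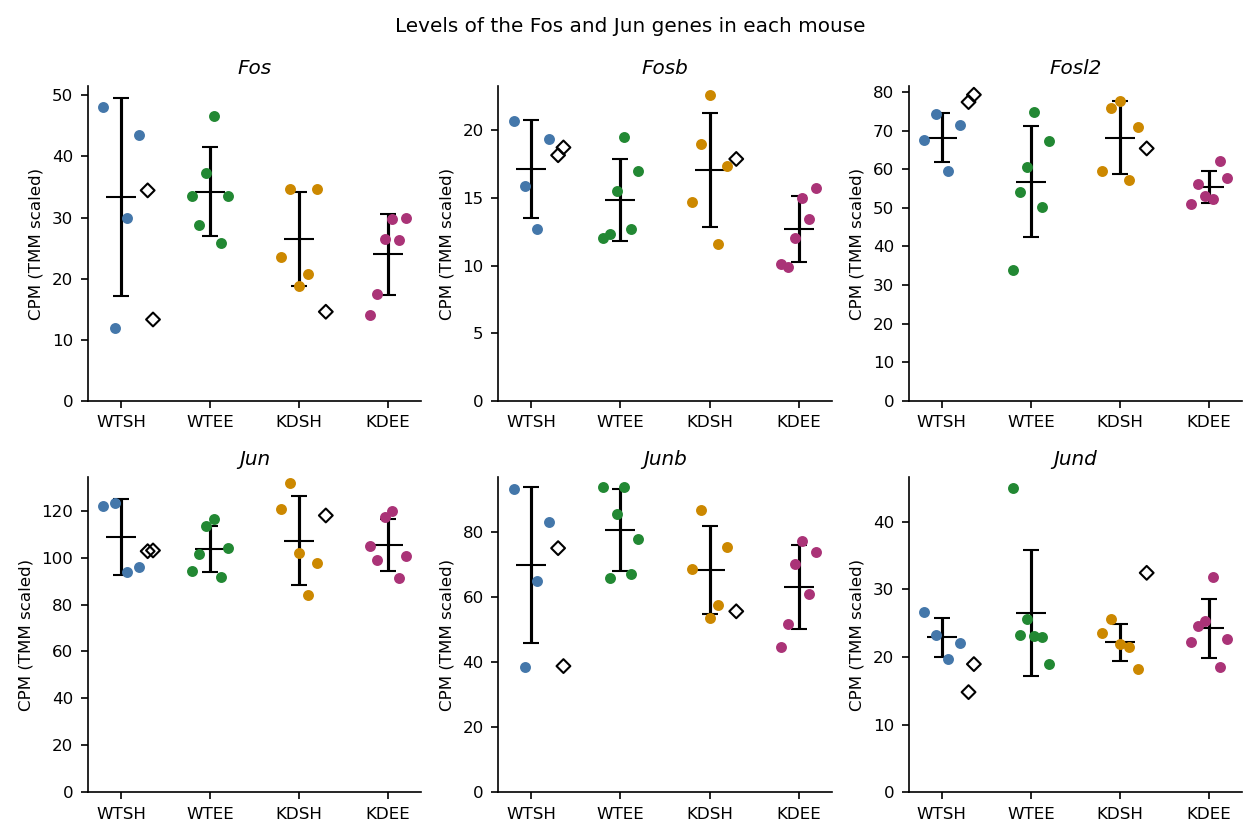
Level of each gene in CPM after TMM scaling (y axes, from 0) in the mice of each group (x axes). Filled points are the 21 mice used, bars are the mean ± SD, and open diamonds are the 3 libraries left out, scaled together with the other 21. WTSH mouse 5 is the low point for Fos (11.9 CPM) and Junb (38.5 CPM), and WTEE mouse 10 is the low point for Fosl2 (34.0 CPM) and the high point for Jund (45.0 CPM).

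The 3 libraries left out were scaled together with the other 21, in which the scale differs by a few percent from that above. In WTSH sample 4 and WTSH sample 7 Fos was at 34.4 and 13.3 CPM and Junb at 75.1 and 38.8 CPM, so that sample 7 was low for both genes, as WTSH mouse 5 was. KDSH sample 6 was at 14.6 CPM for Fos and 55.7 CPM for Junb. Fosl2 was at 77.4 CPM in WTSH sample 4 and 79.3 CPM in WTSH sample 7, both above the highest of the 21 mice on this scale (75.2 CPM), and at 65.4 CPM in KDSH sample 6. Fosb was at 17.9 to 18.7 CPM and Jun at 102.7 to 117.9 CPM in the 3 libraries, within the range of the other mice. Jund was at 14.8 CPM in WTSH sample 4, below the lowest of the 21 mice on this scale (17.7 CPM), at 19 CPM in WTSH sample 7 and at 32.5 CPM in KDSH sample 6.

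The first question was whether enrichment changed these genes in WT mice. A gene was called changed where its Benjamini-Hochberg adjusted p over all 20187 genes in the quasi-likelihood test of edgeR was under 0.05 and its log2 fold change was beyond 0.38 in either direction. None of the 6 genes was called in WTEE against WTSH, where 0% of all genes tested were called, and 0 of the 6 had an unadjusted p under 0.05, against 6.55% of all genes. Fosl2 had the smallest p, with a log2 fold change of -0.26 (SE 0.14, edgeR adjusted p = 0.651). Without WTEE mouse 10 it was -0.15. Junb and Jund had positive estimates of 0.21 each, with SEs of 0.20 and 0.18, and the estimate of Jund was -0.003 without WTEE mouse 10. The 95% confidence interval for Fos, -0.56 to 0.64, included changes past the fold threshold in either direction.

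In MSK1 KD mice the estimates for enrichment were negative for 5 of the 6 genes, and none was called (0% of all genes tested were called). Fosb had a log2 fold change of -0.43 (SE 0.17, edgeR adjusted p = 0.396) and Fosl2 of -0.30 (SE 0.14, edgeR adjusted p = 0.417). These 2 were the members with an unadjusted p under 0.05, a level that 11.6% of all genes reached in this comparison. With single mice left out, Fosb kept an unadjusted p under 0.05 in 17 of the 21 fits and Fosl2 in 14. Neither had one without KDSH mouse 3, KDSH mouse 8, KDEE mouse 9 or KDEE mouse 12, and the values smallest in size were -0.30 for Fosb and -0.25 for Fosl2, both without KDSH mouse 8, which was highest for both genes. Fos, Jun and Junb were at -0.14, -0.02 and -0.12, each smaller in size than its SE, and Jund was at 0.13.

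Over both genotypes, weighted equally, enrichment went with lower estimates for Fosl2 and Fosb, and again no member was called, where 0.00495% of all genes tested (1 gene, Ighm) were called. Fosl2 had a log2 fold change of -0.28 (SE 0.10, edgeR adjusted p = 0.214), or 0.823 of the level in standard housing, and Fosb had -0.32 (SE 0.13, edgeR adjusted p = 0.232), or 0.803 of that level. Both had negative values under all 28 settings tried and an unadjusted p under 0.05 in 28 of 28 (Fosl2) and 26 of 28 (Fosb). An unadjusted p under 0.05 was reached by 18.9% of all genes in this comparison, so that these 2 of 6 members have to be read against a high background. The other members were at -0.05 (Fos), -0.05 (Jun), 0.04 (Junb) and 0.17 (Jund).

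Markers of other cells moved with housing as well, and in bulk tissue fewer cells of a type and less RNA per cell cannot be told apart. All 5 blood markers had higher estimates in enriched mice, with a median log2 fold change of 1.46, and their summed level was 37.0 to 77.5 CPM in the standard-housed groups and 56.2 to 392.5 CPM in the enriched groups. All 6 oligodendrocyte markers were higher (median 0.25), with a summed level of 5213 to 8114 CPM in standard and 6088 to 7884 CPM in enriched mice. Of the 6 excitatory neuron markers, 5 had negative estimates (median -0.05), with a summed level of 9006 to 10177 CPM in standard-housed mice and 6833 to 10206 CPM in enriched mice. All 6 choroid plexus markers were higher in enriched mice, with the largest median (2.51) of these lists and a summed level of 24.9 to 4390 CPM in standard-housed and 45.0 to 9679 CPM in enriched mice. Their median log2 fold change was 4.13 in MSK1 KD mice (6 with an unadjusted p under 0.05) and 0.74 in WT mice (0 with one). Their median summed level was 72.8 CPM in WTSH, 73.2 in WTEE, 40.5 in KDSH and 113 in KDEE. The 6 inhibitory neuron markers (median 0.15), the 6 microglia markers (median 0.09) and 5 of the 6 endothelial markers (median 0.20) were also positive. None of these markers was called by edgeR, while all 5 blood, 5 of the 6 oligodendrocyte, 5 of the 6 choroid plexus, 3 of the 6 endothelial, 2 of the 6 inhibitory neuron and 1 of the 6 microglia markers had an unadjusted p under 0.05. That level was reached by 18.9% of all genes. No list was at 0 in any group, and their part in the values of Fosb and Fosl2 was not tested.

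The second question was whether the genotype changed these genes. In standard housing, KDSH against WTSH, none of the 6 was called (0% of all genes tested) and 0 of the 6 had an unadjusted p under 0.05. The estimate for Fos was -0.33 (SE 0.30) and moved between -0.62 without WTSH mouse 5 and -0.11 without WTSH mouse 2, while those of the other 5 genes lay between -0.05 and -0.001. The 95% confidence intervals of Jun (-0.27 to 0.22) and Fosl2 (-0.32 to 0.31) lay within the fold threshold, and those of the other 4 genes reached past it.

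In enriched housing the largest estimates were those of Fos and Junb. Fos had a log2 fold change of -0.52 in KDEE against WTEE (SE 0.26, edgeR adjusted p = 0.957), 0.700 of the WTEE level, and Junb had -0.36 (SE 0.18, edgeR adjusted p = 0.957), 0.781 of that level. None of the 6 genes was called, 0% of all genes tested were called, and 0 of the 6 had an unadjusted p under 0.05, against 4.99% of all genes. Both estimates were negative in all 29 settings, from -0.59 to -0.32 for Fos and from -0.42 to -0.17 for Junb, with an unadjusted p under 0.05 in 6 of them for Fos and in 11 for Junb. The smallest sizes, -0.32 and -0.17, came with the structural RNA share of the library as a covariate. That share was 0.386% to 1.40% in WTEE and 0.0354% to 0.879% in KDEE. Of the 6 astrocyte markers 5 were higher in KDEE than in WTEE (median log2 fold change 0.18, 3 with an unadjusted p under 0.05, 0 called by edgeR), with a summed level of 3719 to 4646 CPM in WTEE and 4094 to 4988 CPM in KDEE, and their part in the values of Fos and Junb was not tested. Fosb was at -0.23 (SE 0.17), Jund at -0.13 (SE 0.16), Fosl2 at -0.04 (SE 0.13) and Jun at 0.03 (SE 0.10).

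Over both housings, weighted equally, Fos was the only member with an unadjusted p under 0.05 in MSK1 KD against WT. Its log2 fold change was -0.42 (SE 0.20, edgeR adjusted p = 1.0), with a 95% confidence interval from -0.84 to -0.01, and 1.90% of all genes reached that unadjusted level. Its p stood under 0.05 in 11 of the 21 fits that left out 1 mouse. With the structural RNA share as a covariate Fos was at -0.31 and Junb at -0.10, neither with an unadjusted p under 0.05. None of the 6 was called (0% of all genes tested). Junb was at -0.19 (SE 0.14, edgeR adjusted p = 1.0) and the other 4 lay between -0.12 and 0.002.

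The third question was whether the effect of enrichment differed between the genotypes. The genotype by housing difference is the log2 fold change with enrichment in MSK1 KD mice minus that in WT mice. None of the 6 genes was called (0% of all genes tested), 0 of the 6 had an unadjusted p under 0.05, and 3.26% of all genes had one. Junb had the largest estimate, -0.32 (SE 0.27, edgeR adjusted p = 1.0), followed by Fosb at -0.22 (SE 0.25) and Fos at -0.18 (SE 0.40). The confidence intervals were wide, from -1.01 to 0.64 for Fos and from -0.89 to 0.24 for Junb, so that a difference of the size of the fold threshold was not detectable in these genes with these numbers of mice. For Jun the interval ran from -0.28 to 0.37. The Wald test of DESeq2 also called 0 of the 6 genes in each of the 7 comparisons.

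**Figure D2:**
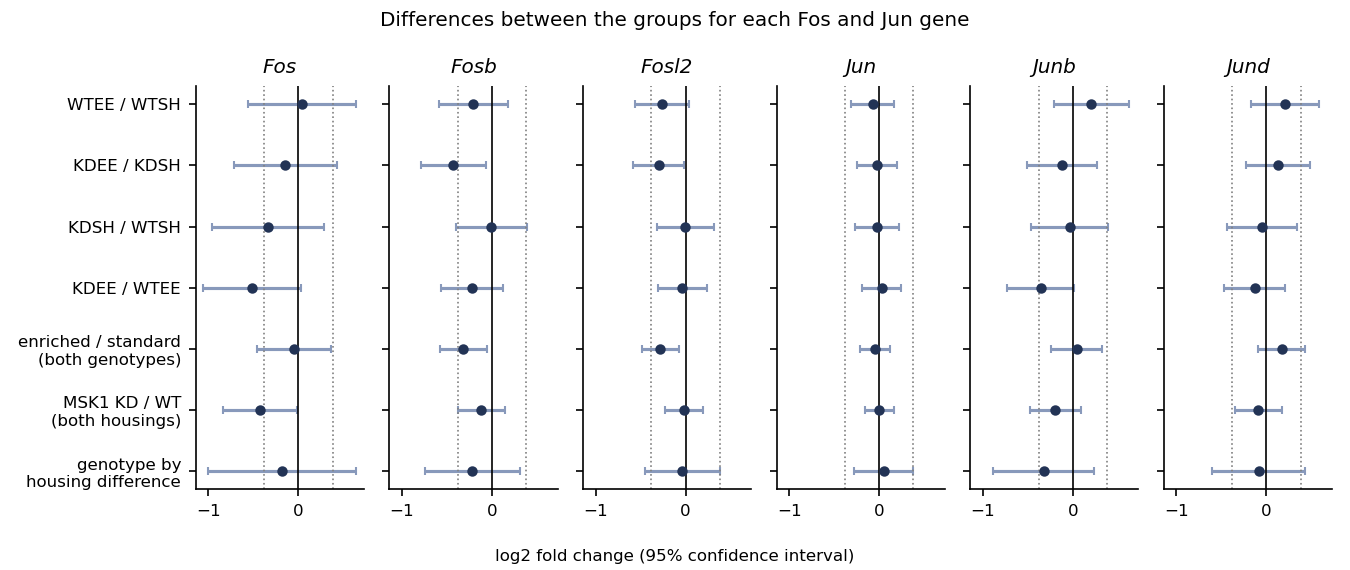
Log2 fold change (x axes) of each gene in the 7 comparisons (y axis), with points for the edgeR estimates and bars for their 95% confidence intervals. Dotted lines mark ±0.38, the fold threshold. The intervals of Jun are the narrowest and those of Fos the widest, and no gene passed the adjusted threshold in any comparison.

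The 6 genes differed more between mice of 1 group than most genes of like abundance, with the groups pooled. Some other immediate early genes also varied widely. In WTSH, Egr2 was at 5.48 ± 2.83 CPM (SD, n = 4) and Dusp1 at 31.8 ± 11.7 CPM, beside 33.4 ± 16.3 CPM for Fos. The SD of log2 CPM within groups was 0.52 for Fos, and 99.4% of the 1000 genes nearest to it in mean level had a smaller SD, with a median of 0.14. The same percentile was 98.5 for Junb (SD 0.35), 94.1 for Jund (0.29), 93.7 for Fosl2 (0.25), 93.3 for Fosb (0.31) and 77.8 for Jun (0.19). At 234 or more read pairs for Fos in every library, counting alone gives a much smaller spread than this. The highest mouse had 4.05 times the Fos level of the lowest, 2.44 times the Junb level, and 1.57 times the Jun level. For Jund and Fosl2 the spread was largest in WTEE, the group of WTEE mouse 10. The SD of log2 CPM of Jund was 0.43 in WTEE, 0.18 in WTSH, 0.18 in KDSH and 0.25 in KDEE. That of Fosl2 was 0.40, 0.14, 0.20 and 0.11 in the same order. For genes of like level to Fosl2 the median SD was 0.13 with the groups pooled. No such median was computed for KDEE alone.

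Fos and Junb rose and fell together from mouse to mouse. After the group means were removed, their log2 CPM correlated with a Pearson r of 0.96 (permutation p = 1e-05, the smallest that 100000 permutations within groups can give, adjusted permutation p = 0.00015 over the 15 pairs) and a Spearman rho of 0.91 (permutation p = 1e-05, adjusted permutation p = 0.00015, n = 21). Without KDEE mouse 9 and WTSH mouse 5, the mice farthest from the median of Fos, r was 0.92 (permutation p = 1e-05). Over all alternatives the coefficient lay between 0.91 and 0.98.

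Fosb and Fosl2 were the other pair that passed the threshold. Their r was 0.67 (permutation p = 0.00039, adjusted permutation p = 0.00293) and rho 0.71 (permutation p = 0.00093, adjusted permutation p = 0.00698, n = 21), and r was 0.70 without KDSH mouse 8 and KDEE mouse 12 (permutation p = 0.00093). The other 13 pairs did not pass. Fos correlated with Fosb at r = 0.52 and rho = 0.56 (permutation p = 0.0259 and 0.0164, adjusted permutation p = 0.130 and 0.0819), and with Fosl2 at r = 0.15 and rho = 0.28 (adjusted permutation p = 0.549 and 0.344). Fos and Jun, whose proteins pair, had an r of 0.13 and a rho of 0.16 (adjusted permutation p = 0.811 and 0.706). Their r was 0.47 without WTSH mouse 5, and 0.55 without KDEE mouse 9 and WTSH mouse 5 (permutation p = 0.0440). The low r thus depends on WTSH mouse 5, although this pair did not pass the threshold in any alternative.

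Fosl2 and Jund ran opposite to each other, with r = -0.61 and rho = -0.31 (permutation p = 0.0482 and 0.205, adjusted permutation p = 0.145 and 0.342), and r was -0.15 without KDSH mouse 8 and WTEE mouse 10 (permutation p = 0.533), and -0.15 without WTEE mouse 10 alone, so that the relation rests on that mouse. WTEE mouse 10 also decided the relation of Jun with Jund, which had an r of 0.31 over all mice and of 0.67 without it (adjusted permutation p = 0.0104). Leaving out KDSH mouse 8 brought the number of pairs past the threshold from 2 to 4, by adding Fos with Fosb (r = 0.68) and Fosb with Junb (r = 0.65). No batch is given in the labels, and 6 libraries shared a sequencing lane, so that lanes cannot be compared.

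None of the 6 genes passed the threshold against the total count or the structural RNA share of the library, over 12 relations with group means removed. The smallest p was that of Jund with the structural RNA share, at r = 0.45 and rho = 0.53 (permutation p = 0.00765 and 0.0143, adjusted permutation p = 0.0918 and 0.172, n = 21), and r was 0.43 without KDEE mouse 9 and WTSH mouse 2 (permutation p = 0.0348). Without KDEE mouse 20 that relation passed (r = 0.49, adjusted permutation p = 0.0280). Junb had an r of 0.50 with that share (adjusted permutation p = 0.416) and Fos of 0.41 (adjusted permutation p = 0.416), and these were 0.19 and 0.06 without the same pair of mice. For Fosl2 and Fosb the values grew without that pair, from -0.29 to -0.49 (permutation p = 0.0062) and from -0.04 to -0.49 (permutation p = 0.0639).

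**Figure D3:**
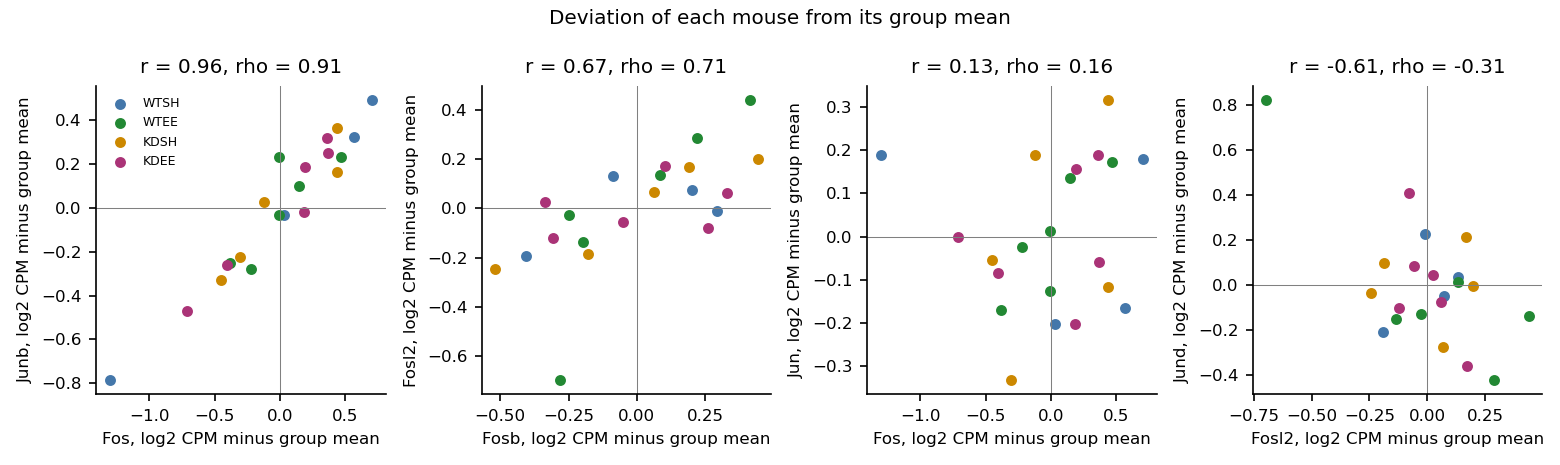
Each point is 1 of the 21 mice, plotted by the deviation of its log2 CPM from the mean of its group for the gene on the x axis and the gene on the y axis, with colours for the groups. Fos and Junb lie along a line (r = 0.96), Fosb and Fosl2 more loosely (r = 0.67), and Fos and Jun do not (r = 0.13, or 0.47 without WTSH mouse 5). The single point at the upper left of Fosl2 against Jund is WTEE mouse 10.

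The genes of the whole table whose levels were most like those of each member over the 21 mice, with group means removed, are given as a description, without a test. They share libraries and depth. Among 15097 genes with a mean of at least 1 CPM, the 5 most like Fos were Junb (r = 0.96), Dusp1 (0.96), Egr2 (0.94), Cyr61 (0.94) and Nr4a1 (0.93), and the 5 most like Junb were Fos (0.96), Cyr61 (0.93), Dusp1 (0.92), Egr4 (0.92) and Egr2 (0.91). Egr2, Egr4 and Nr4a1 encode transcription factors induced by activity, Dusp1 a phosphatase that switches MAPKs off, and Cyr61 a secreted matrix protein. All of them are on the list of fast activity genes.

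For Fosb the 5 genes were Stk40 (r = 0.86), Cwc25 (0.81), Surf6 (0.80), Per1 (0.80) and Arid5a (0.79), of which Per1, a clock gene that is also induced by activity, is on that list. For Fosl2 they were Lpin2 (0.93), Ddi2 (0.92), Narf (0.92), Kdm5c (0.92) and Mical3 (0.91). For Jun they were Nckap5l (0.93), Map1s (0.93), Ncdn (0.92), Csnk1d (0.91) and Plppr2 (0.91), and for Jund Abhd17a (0.97), Map1lc3b (0.96), Ckb (0.96), Coa3 (0.96) and Ppp1ca (0.96). None of these last 15 is a fast activity gene.

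Genes with an r over 0.5 were rare for Fos and common for Jund and Fosl2. They made up 1.23% of the 15097 genes for Fos, 2.0% for Junb, 4.78% for Fosb, 10.3% for Jun, 25.3% for Fosl2 and 27.5% for Jund. WTEE mouse 10 was the lowest mouse for Fosl2 and the highest for Jund. The shares were not computed without it, and its part in them was not tested. Of the 30 fast activity genes, which are other immediate early genes of neurons, 15 had an r over 0.5 with Fos, 17 with Junb, 14 with Fosb, 7 with Fosl2, 3 with Jun and 5 with Jund. For Fosl2 and Jun these counts are near the share of all genes, and for Jund the count is below it. Of the 15 slower activity genes, which follow later and include Bdnf and Homer1, 0 had an r over 0.5 with Fos, Junb or Fosb, 1 with Jun, 4 with Fosl2 and 4 with Jund, counts that cannot be told from the shares of all genes in a list of this size.

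Within the fast list, some genes were like Fos and others like Fosl2. Arc, which regulates AMPA receptor uptake at synapses, had an r of 0.92 with Fos and 0.43 with Fosl2, and Npas4, a transcription factor induced by neuronal calcium entry, had 0.84 and -0.11. Egr3 had 0.12 with Fos and 0.85 with Fosl2, Nr4a2 had 0.20 and 0.73, and Per1 had 0.27 and 0.87. Fosb stood between, at 0.64 with Arc, 0.54 with Egr3, 0.68 with Nr4a2 and 0.80 with Per1. These genes were picked after their values were seen. The r values with Fosl2 include WTEE mouse 10, which had the lowest Fosl2 level, and were not computed without it. Egr3 in WTEE had a lowest value of 16.4 CPM beside a median of 46.1 CPM.

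**Figure D4:**
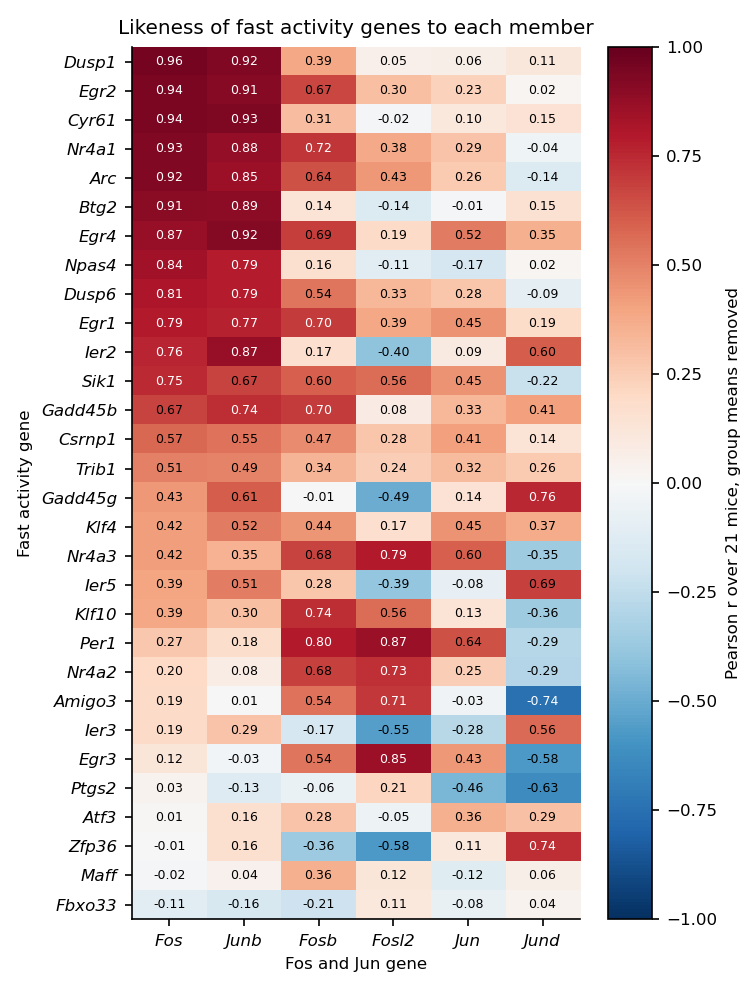
Pearson r over 21 mice, with group means removed, between each of the 30 fast activity genes (rows, ordered by their r with Fos) and each of the 6 genes (columns), with red for positive and blue for negative values. The upper rows are high in the columns of Fos and Junb (Dusp1 at 0.96 and 0.92), whereas Egr3, Nr4a2 and Per1 are high for Fosl2 and low for Fos. All columns include WTEE mouse 10, which was the lowest mouse for Fosl2 and the highest for Jund.

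In the comparisons between groups, 0 of the 30 fast activity genes were called by edgeR in any of the 7 contrasts, and 0 by DESeq2. In KDEE against WTEE, where Fos and Junb had their largest estimates, 25 of the 30 had negative estimates, with a median log2 fold change of -0.12 beside 0.001 over all genes. Of the 30, 2 had an unadjusted p under 0.05, against 4.99% of all genes. The smallest p there belonged to Gadd45b at -0.38 (edgeR adjusted p = 0.361), Ptgs2 at -0.23 (edgeR adjusted p = 0.957), Egr2 at -0.59 (edgeR adjusted p = 0.957) and Ier2 at -0.35 (edgeR adjusted p = 0.957). Genes of this list moved together between mice, as shown above for Fos, so that they are not separate observations. Over both housings 24 of the 30 were negative in MSK1 KD mice (median -0.08), and in WTEE against WTSH 10 of the 30 were (median 0.07).

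Of the 15 slower activity genes 0 were called by edgeR, and 3 had an unadjusted p under 0.05 for housing, a share near the 18.9% of all genes. Homer1, which encodes a scaffold of glutamate receptor synapses, had a log2 fold change of -0.40 in enriched against standard housing (SE 0.09, edgeR adjusted p = 0.174), and Inhba, a subunit of activin, had -0.57 (SE 0.16, edgeR adjusted p = 0.179). Rgs2 was at 0.16 and Pcsk1 at -0.27. With the Wald test of DESeq2, Homer1 was called (-0.39, DESeq2 adjusted p = 0.0283). In that comparison 9 of the 15 were negative, with a median of -0.02.

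Of the 16 AP-1 partners, the other basic leucine zipper proteins that can pair with Fos or Jun subunits, 0 were called by edgeR. For housing 3 of the 16 had an unadjusted p under 0.05, a share near the 18.9% of all genes. Batf3, which pairs with Jun subunits and is known from immune cells, had the smallest p of the list in most comparisons. Its log2 fold change was 0.90 in WTEE against WTSH (SE 0.18, edgeR adjusted p = 0.445), -0.73 in KDEE against WTEE (SE 0.15, edgeR adjusted p = 0.184), 0.54 for housing over both genotypes (edgeR adjusted p = 0.174) and -0.72 for the genotype by housing difference (edgeR adjusted p = 0.730). DESeq2 called Batf3 in the first 3 of these (DESeq2 adjusted p = 0.0475, 0.0167 and 0.0283). Fosl1, the remaining Fos subunit gene, was at 6.85 to 7.88 CPM as group means and at -0.14 for housing (edgeR adjusted p = 0.315).

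Among the 26 genes upstream of Fos and Jun, which encode kinases of the MAPK pathways, the ribosomal S6 kinases with MSK1, SRF, CREB and their cofactors, 20 had negative estimates for enrichment over both genotypes, with a median of -0.07 beside 0.007 over all genes. None was called by edgeR or DESeq2, and 7 of the 26 had an unadjusted p under 0.05, a level that 18.9% of all genes reached. The smallest p belonged to Mapk14, which encodes p38α, at -0.12 (edgeR adjusted p = 0.179), Creb1 at -0.12 (edgeR adjusted p = 0.214) and Rps6ka3 at -0.14 (edgeR adjusted p = 0.240). In MSK1 KD against WT 18 of the 26 were positive (median 0.01), and 0 had an unadjusted p under 0.05.

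Of 10 known targets of AP-1, 0 were called by edgeR or DESeq2. In KDEE against WTEE 1 had an unadjusted p under 0.05, against 4.99% of all genes. In WTEE against WTSH 8 of the 10 had positive estimates (median 0.22), and in KDEE against WTEE 8 of the 10 had negative ones (median -0.12), with Npy at -0.32 (edgeR adjusted p = 0.957) and Cdk5 at -0.14 (edgeR adjusted p = 0.957) having the smallest p. These 2 comparisons share the WTEE mice. The genotype by housing difference was negative for 9 of the 10, where 49.0% of all genes were positive. Its median was -0.17, with the smallest p for Penk, which encodes proenkephalin, at -0.33 (edgeR adjusted p = 1.0). In WTEE Penk had a median of 23.4 CPM and a highest value of 40.7 CPM, and the part of single mice in these signs was not tested. The 8 heat shock genes, measured as a sign of stress at tissue removal, had 0 calls by edgeR or DESeq2, 0 unadjusted p under 0.05 and medians within 0.06 of 0 in all 7 comparisons.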

How the data were processed

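Per the labels and the study's methods, poly(A) libraries were sequenced as read pairs, and the authors removed adapters with Skewer, used STAR 2.5 for alignment to GRCm38, and deposited the counts of uniquely aligned read pairs that HTSeq 0.6.1p1 assigned to each gene symbol, without strand and without normalization. Rows that name no gene were left out of library sizes. In the 21 libraries, read pairs without a feature were 8.41% to 15.7% and ambiguous ones 4.14% to 6.57%. These shares are relative to the counts on genes and on all rows that name no gene together. Groups were taken from the labels. Mouse numbers occur in 1 group each, so samples were unpaired.

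Counts were fitted with edgeR 4.0.16 in R 4.3.3 (TMM, filterByExpr, quasi-likelihood test, all 4 groups in 1 model), and calls used the study's thresholds. Levels are CPM after TMM, and correlations used log2 CPM with a prior count of 2. The Wald test of DESeq2 1.42.0 was an alternative; the study made its own calls with another version of DESeq2. Scripts were tested on simulated counts. Depth was 27410239 to 71907130 counts, which are not molecules, and PCR copies cannot be told apart. Sequences came from the RefSeq promoter table (GRCm38.p6), in which all 6 symbols matched, and positions from GENCODE M21, in which 47139 of the 49568 symbols matched 1 gene.

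Named genes are the 6 members, the 5 genes most like each and, for each list, up to 4 genes with the smallest p. A gene that this rule names is not reported here. Arc, Npas4, Egr3, Nr4a2 and Per1 in the comparison of Fos with Fosl2, Fosl1, Bdnf and Ighm were chosen after their values were seen. The members and lists were chosen with earlier results of these data known. Protein sequences were not used here.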

Additional observations from a re-analysis of the deposited data

Results flagged for a closer look

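Jund in WTEE was the 1 of the 24 sets of a gene and a group in which a single mouse lay far from the others by Dixon's test, a test that chance alone passes in about 1 of 20 sets. WTEE mouse 10 was at 45.03 CPM and the next highest WTEE mouse at 25.7 CPM, a gap of 0.741 of the range of the 6 mice against a critical value of 0.625. Without this mouse the log2 fold change of Jund in WTEE against WTSH went from 0.21 to -0.003, and in KDEE against WTEE from -0.13 to 0.09. The same mouse had the lowest Fosl2 level, the lowest summed level of excitatory neuron markers and a high share of ambiguous read pairs. The part of these in the value of Jund was not tested.

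In 2 of the 3 libraries that were left out, Fosl2 was higher than in any of the other 21 mice (at most 75.2 CPM on the same scale), at 77.37 CPM in WTSH sample 4 and 79.27 CPM in WTSH sample 7, while KDSH sample 6 was at 65.4 CPM. The structural RNA share of these 2 libraries was 23.2% and 22.9%, and its part in the level of Fosl2 was not tested. With all 24 libraries the Fosl2 estimate for WTEE against WTSH reached an unadjusted p under 0.05, but was not called.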

How the results depend on the processing

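The number of called members was 0 in all 7 comparisons under each of the other settings tried for it, DESeq2 included, and in all 21 fits without a single library. Of the 42 log2 fold changes, 21 had the same direction in every setting, among them those of Fosb and Fosl2 for housing and of Fos and Junb in KDEE against WTEE, and the other 21 had main values of at most 0.21 in size and changed sign in at least 1 setting. The cause of the sign changes was not tested, and none of the values before or after was called. Whole-table calls did depend on the tool: DESeq2 called 2 genes in WTEE against WTSH, 14 in KDEE against KDSH, 118 in KDEE against WTEE, 41 for housing and 20 for the genotype by housing difference, where edgeR called 0, 0, 0, 1 and 0. With all 24 libraries edgeR called 15 for housing, with the structural RNA share as a covariate 0, with only the groups compared 1 in KDEE against KDSH, and with all 24 libraries 1 in WTEE against WTSH.

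With the structural RNA share as a covariate, the log2 fold change was -0.13 for Fos in WTEE against WTSH, 0.0050 for Fosl2 in KDSH against WTSH, 0.042 for Jund in KDEE against WTEE, -0.041 for Junb for housing and 0.11 for Jund in the genotype by housing difference. With all 24 libraries it was 0.020 for Jun, 0.0059 for Junb and 0.18 for Jund in KDSH against WTSH, 0.070 for Fos for housing, 0.025 for Jund for the genotype and 0.053 for Fosl2 in the genotype by housing difference. With only the groups compared it was 0.0027 for Fosl2 in KDSH against WTSH, and without a filter on low counts it was -0.0036 for Jun for the genotype.

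With single libraries left out, the values that changed sign ranged as follows. In WTEE against WTSH they were -0.24 to 0.27 for Fos and -0.0030 to 0.29 for Jund, and in KDEE against KDSH -0.098 to 0.067 for Jun. In KDSH against WTSH they were -0.13 to 0.11 for Fosb, -0.063 to 0.057 for Fosl2, -0.11 to 0.054 for Jun, -0.24 to 0.13 for Junb and -0.11 to 0.029 for Jund. In KDEE against WTEE they were -0.14 to 0.059 for Fosl2, -0.013 to 0.065 for Jun and -0.22 to 0.088 for Jund. For housing they were -0.19 to 0.065 for Fos, -0.084 to 0.0016 for Jun and -0.052 to 0.13 for Junb. For the genotype they were -0.074 to 0.029 for Fosl2, -0.044 to 0.040 for Jun and -0.13 to 0.020 for Jund. For the genotype by housing difference they were -0.40 to 0.10 for Fos, -0.14 to 0.059 for Fosl2, -0.027 to 0.13 for Jun and -0.18 to 0.14 for Jund. Leaving out WTEE mouse 10 gave the sign changes of Jund, other than those in KDSH against WTSH.

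The number of pairs of members past the threshold was 2 to 4 with single libraries left out and 4 without KDSH mouse 8. The number of members past the threshold against depth or structural RNA share was 0 to 1, and 1 without KDEE mouse 20. Fos with Jund correlated at -0.063 with all 24 libraries and at -0.0060 to 0.14 with single libraries left out, Fosb with Jund at 0.022 by rho and -0.16 to 0.18, and Fosl2 with Junb at 0.051 by rho and -0.10 to 0.19. With all 24 libraries the structural RNA share had an r of -0.030 with Fos, 0.12 with Fosb and 0.016 with Fosl2, and with single libraries left out its r with Fosb was -0.29 to 0.089. The total count had a rho of -0.077 with Jun and -0.013 with Jund, and with single libraries left out its r was -0.28 to 0.042 with Fosl2, -0.019 to 0.18 with Jun and -0.089 to 0.28 with Jund.

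No paired analysis was possible because each mouse number occurs in 1 group. The confidence intervals of Fos, which reach past the fold threshold in all 7 comparisons, set the limit on what these 4 to 6 mice a group can show.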
